A study of Mus musculus with 8 samples.

Results

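Lamp5 interneuron nuclei were 236 of the 44762 nuclei that passed a quality filter, out of 53390 barcodes in 8 single-nucleus RNA libraries from mouse brain. They were chosen by counts of unique molecular identifiers (UMIs, each 1 captured transcript): at least 2 UMIs of Gad1 and Gad2 together, at least 2 of Lamp5, at most 3 of Sst, at most 1 of Pvalb, at most 1 of Vip, at most 1 of Slc17a7 and Slc17a6 together, and 0 of Mog, Aqp4 and Cx3cr1 together. The same gate without its Lamp5, Sst, Pvalb and Vip terms held 5125 GABA nuclei, so the Lamp5 nuclei were a small minority of the inhibitory nuclei. The 11 genes of this gate chose the nuclei and support nothing below.

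The tissue was perilesional forebrain of male Swiss Webster mice aged 10 weeks. Control mice, mice with BCAS, mice with TBI (traumatic brain injury) and mice with both gave 2 libraries per group, which the labels number as biological replicates. The labels give BCAS only as an abbreviation, which the study's title ties to cerebral hypoperfusion, and no time from surgery to collection. The title asks whether hypoperfusion worsens the injury. Control 1 and 2 held 22 and 36 Lamp5 nuclei, BCAS 1 and 2 held 29 and 33, TBI 1 and 2 held 23 and 48, and BCAS+TBI 1 and 2 held 27 and 18.

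Lamp5 interneurons are GABA-releasing cells of the cortex and hippocampus, and most are neurogliaform cells. Neurogliaform cells release GABA into the space around their dense axons, which reaches synaptic and extrasynaptic GABA-A receptors and GABA-B receptors on neighbouring cells. Many make reelin, a secreted glycoprotein that binds the lipoprotein receptors Vldlr and Lrp8 and signals through Dab1, and neuropeptide Y. Most derive from the caudal ganglionic eminence or the preoptic area, and a smaller kind with Lhx6 is linked to the medial ganglionic eminence.

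Lamp5 nuclei had a median of 6979.5 UMIs, from 1926 to 28448 per nucleus, and 94525 to 384878 UMIs summed per library. The libraries fell into 2 sets by total UMIs, each with 1 library of every group: set 1 (control 1, BCAS 1, TBI 1 and BCAS+TBI 2) with medians of 4271.5 to 5632 UMIs per Lamp5 nucleus, and set 2 (the others) with 7269.5 to 9253. In the Lamp5 nuclei, 243 of 4520 genes differed between the sets (edgeR, Benjamini-Hochberg adjusted p under 0.05), and the set is therefore a term of the surgery model. No barcode was shared between Lamp5 nuclei of different libraries (0), while 217 of the 44544 distinct barcodes that passed occurred in more than 1 library. Mitochondrial UMIs made up 0.688% to 1.52% of the Lamp5 sums.

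The nuclei carried the markers that their label calls for, but shared several of them with other interneuron classes. Reln had 981 and 1359 CPM in control 1 and 2, 1085 and 1405 in BCAS, 1358 and 1563 in TBI, and 944 and 1111 in BCAS+TBI, where CPM is the UMIs of a gene in all Lamp5 nuclei of a library, scaled to the same total for every library. These levels lay above every Pvalb and Vip nuclei sum, which ended at 53.0 and 253 CPM, and overlapped those of Sst nuclei, at 587 to 1097. Adarb2, an RNA-editing family gene that marks interneurons of the caudal ganglionic eminence, had 3367 CPM in the lowest library, a median of 4355 and 6568 in the highest. Sox6, a transcription factor of interneurons from the medial ganglionic eminence, had only 14.6 to 56.1 CPM, against 652 to 1087 in Sst nuclei. The 9 genes of the Lamp5 marker list outside the gate included Reln and Adarb2. Their sum was 6267 to 9380 CPM in Lamp5 nuclei but 9207 to 15184 CPM in Vip nuclei. It was 1396 to 1838 CPM in Sst and 143 to 1049 CPM in Pvalb nuclei, so this sum did not single out Lamp5 nuclei.

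Detection was compared after thinning each nucleus to 2000 UMIs, which left out 1 Lamp5 nucleus, with oligodendrocyte nuclei (at least 2 UMIs of Mog and none of the neuronal gate genes Gad1, Gad2, Slc17a7 and Slc17a6, nor of Aqp4 or Cx3cr1) as a cell type that should lack these genes. Reln was detected in 54.0% of thinned Lamp5 nuclei (66.5% unthinned; 95% exact interval of the thinned share 47.4% to 60.5%) and in 2.28% of oligodendrocyte nuclei. Ndnf, a secreted neurotrophic factor of neurogliaform cells, was detected in 29.8% of Lamp5 nuclei (38.1% unthinned) and in 0% to 3.28% of the other 3 interneuron classes, against 2.74% of oligodendrocyte nuclei. Kit, a receptor tyrosine kinase, was at 44.7% in Lamp5 nuclei and 37.7% in Vip nuclei, against 2.50% in Sst nuclei, 0.552% in Pvalb nuclei and 7.31% in oligodendrocyte nuclei. Adarb2 was at 80.0% in Lamp5 nuclei, 97.4% in Vip nuclei and 13.0% in oligodendrocyte nuclei. The oligodendrocyte nuclei were shallower, with a median of 1918 UMIs, and 512 of 950 fell below the thinning depth. Intervals cover counting error only.

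**Figure D1:**
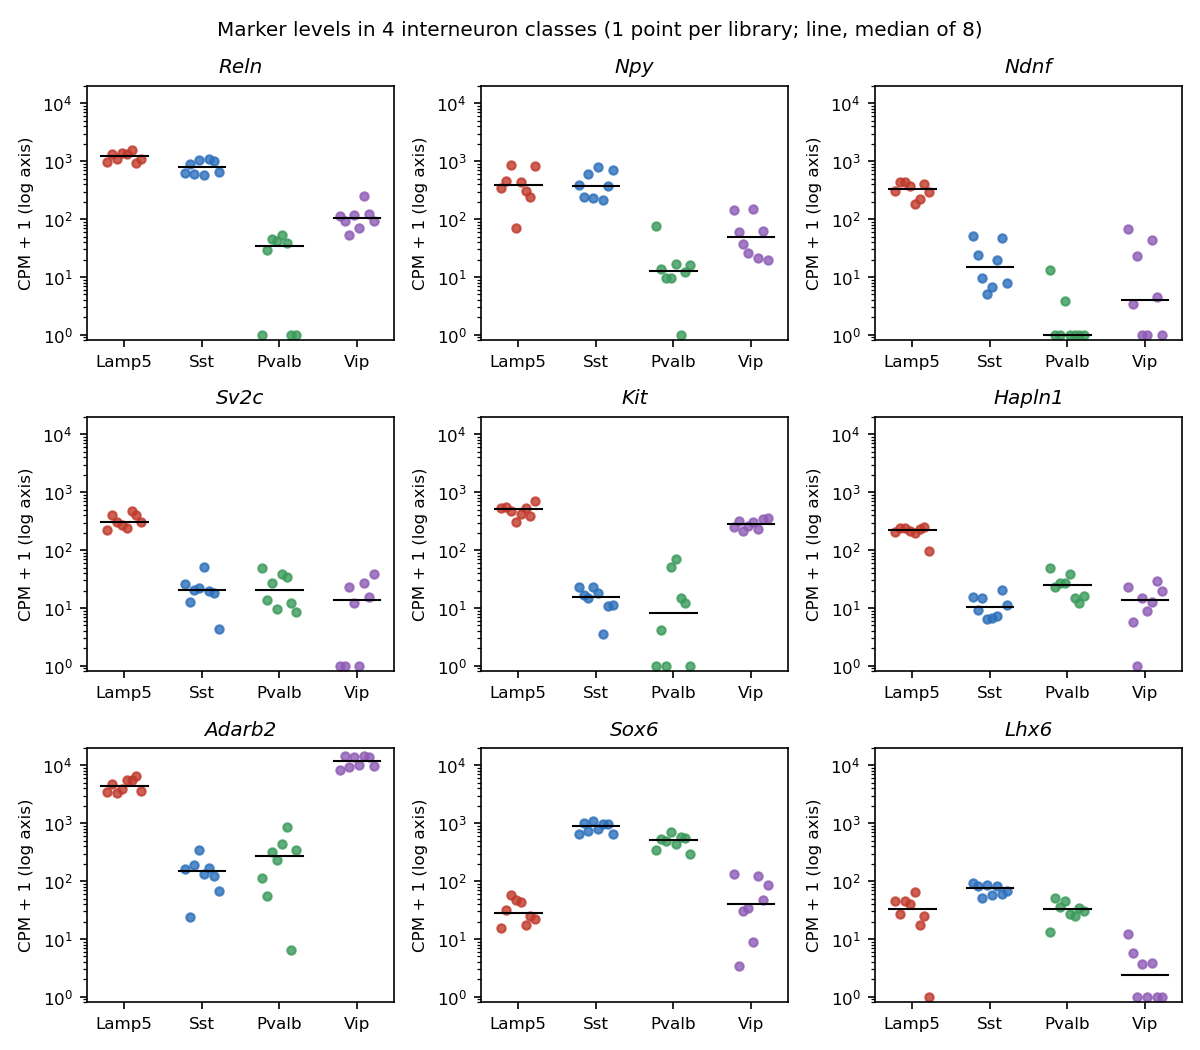
CPM + 1 (log axis) of 9 genes in the summed Lamp5, Sst, Pvalb and Vip nuclei of each library; each point is 1 library and the line is the median of 8. Ndnf, Sv2c and Hapln1 stand apart in Lamp5 nuclei, Reln and Npy are shared with Sst nuclei, Adarb2 and Kit with Vip nuclei.

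Single nuclei differed in how many of these genes they held. At least 1 UMI of Reln was present in 157 of the 236 nuclei, of Npy in 105 and of Ndnf in 90. Ndnf lay almost wholly within Reln: 88 of the 90 Ndnf nuclei held Reln as well. Npy was held by 45 of these 90, near its share of 44.5% over all 236 nuclei. All 3 genes were found in 44 nuclei and none of them in 52. Of Reln, Npy, Ndnf, Sv2c, Kit and Hapln1, 154 nuclei held 3 or more, 30 held all 6 and 20 held none.

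The gated nuclei varied in these genes and in Meis2. A gene can be missed in a nucleus at this depth, and whether the gate selected 1 uniform kind was not tested. After thinning, Meis2 was detected in 16.6% of Lamp5 nuclei and in 15.1% of oligodendrocyte nuclei. It was detected in 27.1% of Pvalb, 4.05% of Sst and 2.56% of Vip nuclei. Meis2, a transcription factor listed here among the markers of striatal projection neurons, had at least 2 UMIs in 37 nuclei, and 9 of these had 0 UMIs of Adarb2. Adarb2 was absent from 31 nuclei in all. Over the 8 genes of the striatal list (Drd1, Drd2, Adora2a, Ppp1r1b, Rgs9, Pde10a, Meis2 and Foxp1), all with UMIs, the summed level was 1004 to 2428 CPM in Lamp5, 703 to 1111 in Sst, 723 to 1546 in Pvalb and 546 to 1228 CPM in Vip nuclei, so all ranges overlapped. Within that list Pde10a alone reached 719 to 1508 CPM. Lhx6, the marker of the medial ganglionic eminence kind, had at least 2 UMIs in 16 nuclei, at most 4 in any library, so no test of an Lhx6 kind was made.

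Nuclei with Npy and nuclei without it held different levels of several genes. The 79 nuclei with at least 2 UMIs of Npy had a mean of 851 ± 202 CPM of Kit (SD over 8 libraries), against 264 ± 100 CPM in the 131 nuclei with 0. Sv2c, a synaptic vesicle glycoprotein, stood at 553 ± 174 against 225 ± 54.4 CPM, and Adarb2 at 7343 ± 1544 against 3281 ± 1416. Prox1, a transcription factor of interneurons from the caudal ganglionic eminence, was at 136 ± 30.8 against 58.1 ± 29.2 CPM, and each of these 4 genes was higher on the Npy side in 8 of 8 libraries. Meis2 went the other way, at 2.11 ± 5.97 CPM with Npy and 420 ± 207 CPM without. The transcription factors Foxp2 (6.84 ± 19.4 against 261 ± 161 CPM) and Pbx3 (24.9 ± 27.5 against 235 ± 186 CPM) followed Meis2, all 3 being higher with Npy in 0 of 8 libraries, and Rgs9 was at 0 with Npy and at 91.3 ± 82.5 CPM without. These are descriptions, since the sides were cut by a measured gene, and they carry no test. Median depth was 6216 UMIs with Npy and 7339 without.

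**Figure D2:**
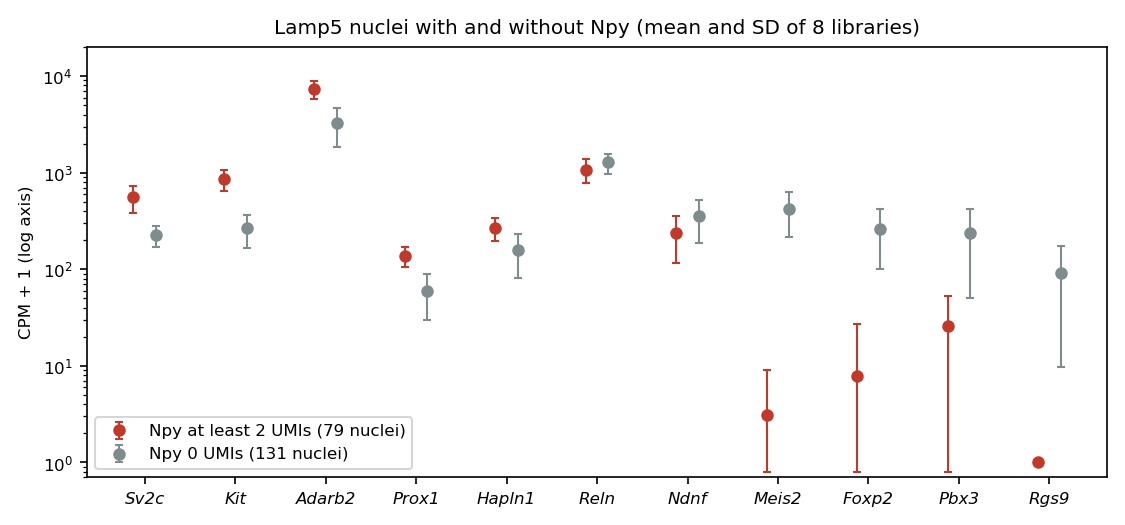
CPM + 1 (log axis) of 11 genes in Lamp5 nuclei with at least 2 UMIs of Npy and with 0 UMIs; points are means and bars SDs of 8 libraries, cut at the lower edge of the plot. The bars of Reln and Ndnf overlap between the sides, while Meis2, Foxp2, Pbx3 and Rgs9 are lower on the Npy side, with Rgs9 at 0.

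Reln divided the nuclei differently. The 139 nuclei with at least 2 UMIs of Reln had 603 ± 200 CPM of Ndnf, against 6.29 ± 15.2 CPM in the 79 nuclei with 0. Hapln1, a link protein of the hyaluronan matrix, was at 265 ± 75.7 against 154 ± 71.1 CPM. Erbb4, the neuregulin receptor of interneurons, was at 10104 ± 1980 against 5703 ± 2404 CPM, and all 3 were higher with Reln in 8 of 8 libraries. Prox1 was higher with Reln in only 4 of 8 libraries, at 89.1 ± 40.5 against 88.1 ± 52.0 CPM. Meis2 was again low with Reln, at 70.3 ± 91.5 against 445 ± 274 CPM, and higher with Reln in 0 of 8 libraries.

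Values near the threshold of the gate show where these nuclei end. The 133 nuclei with exactly 2 UMIs of Lamp5, just inside, had 1117 CPM of Reln, 257 of Ndnf, 3796 of Adarb2 and 333 of Meis2, summed over libraries. The 383 nuclei that met all other terms and had exactly 1 UMI of Lamp5, just outside, had 638 CPM of Reln, 119 of Ndnf, 2631 of Adarb2 and 584 of Meis2. The 103 nuclei with at least 3 UMIs had 1517 CPM of Reln, 450 of Ndnf and 138 of Meis2. From 1 UMI of Lamp5 to 2 and to at least 3, Reln and Ndnf thus stood higher and Meis2 lower. The nuclei just outside still held more Reln than the 3463 with 0 UMIs of Lamp5, at 276 CPM. Those 3463 nuclei had 364 CPM of Meis2, below the 584 CPM at 1 UMI, so Meis2 did not fall steadily as Lamp5 rose.

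Lamp5 nuclei were compared with 523 Sst, 182 Pvalb and 320 Vip nuclei gated in the same way from the same libraries. After removal of the 11 gate genes, 97 of 7750 genes (1.25%) were higher in Lamp5 nuclei than in each of the other 3 classes, and 44 (0.568%) were lower than in each (edgeR quasi-likelihood test on sums per library with library as a term, adjusted p under 0.05 and at least 2-fold in all 3 contrasts). The named genes among those higher in all 3 include genes for vesicle, matrix and adhesion proteins, a calcium-channel subunit and cyclic nucleotide and sodium-channel regulators. Against single classes, 374 genes (4.83%) were higher and 319 (4.12%) lower than in Sst nuclei, 566 (7.3%) and 437 (5.64%) for Pvalb nuclei, and 310 (4%) and 330 (4.26%) for Vip nuclei. The median log2 fold change of all genes was near 0 in each, at -0.012, 0.0264 and -0.0023. Of the genes called in all 3, 46 higher and 11 lower had a mean of at least 50 CPM (in Lamp5 nuclei for the higher genes, in each other class for the lower) and lay beyond the other classes in every library, and the 15 and 10 with the largest smallest fold are named here.

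Sv2c and Ndnf led the higher genes. Sv2c had 220 and 411 CPM in control, 306 and 265 in BCAS, 243 and 481 in TBI, and 406 and 307 in BCAS+TBI, while no library of another class passed 50.8 CPM. Its log2 fold change was 4.08 ± 0.22 (SE) against Sst, 4.10 ± 0.28 against Pvalb and 4.65 ± 0.29 against Vip nuclei (largest edgeR adjusted p of the 3, 1.05e-16). Ndnf had a median of 336 CPM, from 179 to 444, and exceeded Sst nuclei by 4.07 ± 0.25, Pvalb nuclei by 7.62 ± 0.51 and Vip nuclei by 4.51 ± 0.33 on the log2 scale. In 6 of the 8 libraries the Pvalb nuclei held no UMI of Ndnf, so that fold depends on the prior count. Hapln1 stood at 95.2 to 255 CPM with a median of 223, and BCAS+TBI 2 was the low library; its log2 fold changes were 4.42 ± 0.20, 3.18 ± 0.22 and 3.98 ± 0.24 against Sst, Pvalb and Vip nuclei.

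The first 3 named genes that have an entry in RefSeq's promoter table are shown with Reln, as examples of the start regions of genes that set Lamp5 nuclei apart; 11 of the 15 named higher genes had an entry, and Ndnf had none. Each sequence is the 150 bases before the annotated start, 5′ to 3′ on the gene's strand, in build GRCm38.p6. Capitals mark the GC box, GGGCGG, searched on both strands (on the opposite strand it reads CCGCCC). The TATA box as TATAAA, the CAAT box as CCAAT, an E-box as CAGCTG and the cyclic AMP response element as TGACGTCA were searched on both strands in the same way, and none was found in these 4 windows. Sv2c lies at chr13:96132578-96132727 on the minus strand, Hapln1 at chr13:89540486-89540635 on the plus strand, Myo3b at chr2:70038976-70039125 on the plus strand and Reln at chr5:22344706-22344855 on the minus strand.
Sv2c: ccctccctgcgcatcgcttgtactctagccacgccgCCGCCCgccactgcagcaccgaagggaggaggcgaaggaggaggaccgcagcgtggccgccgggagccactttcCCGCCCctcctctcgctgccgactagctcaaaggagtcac
Hapln1: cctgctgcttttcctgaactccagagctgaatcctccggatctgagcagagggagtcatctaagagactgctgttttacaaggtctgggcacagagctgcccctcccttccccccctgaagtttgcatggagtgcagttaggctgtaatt
Myo3b: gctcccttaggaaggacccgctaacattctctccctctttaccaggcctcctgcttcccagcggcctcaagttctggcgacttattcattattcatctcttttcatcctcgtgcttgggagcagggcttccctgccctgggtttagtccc
Reln: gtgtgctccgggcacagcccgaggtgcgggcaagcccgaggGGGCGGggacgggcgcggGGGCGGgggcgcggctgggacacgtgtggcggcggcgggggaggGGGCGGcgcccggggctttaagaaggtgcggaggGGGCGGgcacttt
The Sv2c and Reln windows are 69.3% and 80.0% G or C with 15 and 20 CG steps, while those of Hapln1 and Myo3b are at 53.3% and 54.7% with 1 and 4, near the median of 54.0% over 32851 windows. GGGCGG was present in 28.6% of all windows of this length, so its presence in the Sv2c and Reln windows is a description only. The start regions of these 4 genes thus ranged from CG-rich to CG-poor.

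The ion-channel and signalling genes among those named were high throughout. Cacna2d1, an auxiliary calcium-channel subunit that binds gabapentin, had 1217 CPM in the lowest library, a median of 1480 and 1782 in the highest, and no Vip library passed 365. Its log2 fold change was 4.73 ± 0.15 against Sst, 5.16 ± 0.18 against Pvalb and 2.37 ± 0.13 against Vip nuclei (largest edgeR adjusted p 1.59e-19). Fgf13, an intracellular relative of fibroblast growth factors that binds sodium channels, had 1677 to 3159 CPM and was higher by 3.52 ± 0.14, 2.51 ± 0.14 and 2.22 ± 0.14. Pde11a, a phosphodiesterase of cyclic AMP and cyclic GMP, had a median of 357 CPM and was higher by 5.41 ± 0.32, 3.07 ± 0.30 and 2.54 ± 0.27; control 2 was its high library at 764 CPM.

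The other named genes code for proteins of several kinds. Igsf11, an immunoglobulin-family adhesion protein of synapses, had 212 to 520 CPM and was 5.01 ± 0.21 higher than in Sst nuclei on the log2 scale, against 2.68 ± 0.20 and 2.84 ± 0.20 for Pvalb and Vip nuclei. Crispld1, a secreted cysteine-rich protein, had a median of 220 CPM with log2 fold changes of 4.82 ± 0.23, 3.13 ± 0.23 and 3.97 ± 0.25. Dchs2, a large cadherin, had 51.2 to 269 CPM, and Mpdz, a scaffold with many PDZ domains, 180 to 497 CPM; their smallest log2 fold changes were 2.47 and 1.86. Myo3b, an unconventional myosin, Disp3, Pdlim5, Pld5 and Lmo7 completed the list with smallest log2 fold changes of 2.95, 2.45, 2.23, 2.06 and 1.92. All 15 kept their call in each of the 18 to 20 other settings that tested them.

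Fewer genes were lower, and channel and glypican genes stood among them. Oxr1, an oxidation resistance gene, had a median of 185 CPM in Lamp5 nuclei, from 118 to 426, against medians of 1290, 1019 and 869 CPM in Sst, Pvalb and Vip nuclei. Its log2 fold changes were -2.73 ± 0.14, -2.43 ± 0.14 and -2.20 ± 0.14 (largest edgeR adjusted p 5.4e-17). Kcnc2, a potassium channel subunit that allows fast firing, had 198 to 543 CPM, below the 1107 to 1930 CPM of Sst nuclei and the 1366 to 2365 CPM of Pvalb nuclei, with log2 fold changes of -2.15 ± 0.12, -2.33 ± 0.13 and, against Vip nuclei, -1.42 ± 0.13. Gpc6, a glypican on the cell surface, had 57.2 to 398 CPM with log2 fold changes of -1.57, -1.72 and -1.54. Rnf144b, Igsf3, Ano4, Pitpnm3, Bmper, Pcdh7 and March1 had smallest log2 fold changes of -1.80, -1.53, -1.38, -1.28, -1.26, -1.25 and -1.05. Bmper and March1 lost their call without the nuclei that held Meis2, and March1 also without TBI 2. In a test against a 2-fold change itself (glmTreat), Igsf3, Ano4, Pitpnm3, Bmper, Pcdh7 and March1 did not pass.

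**Figure D3:**
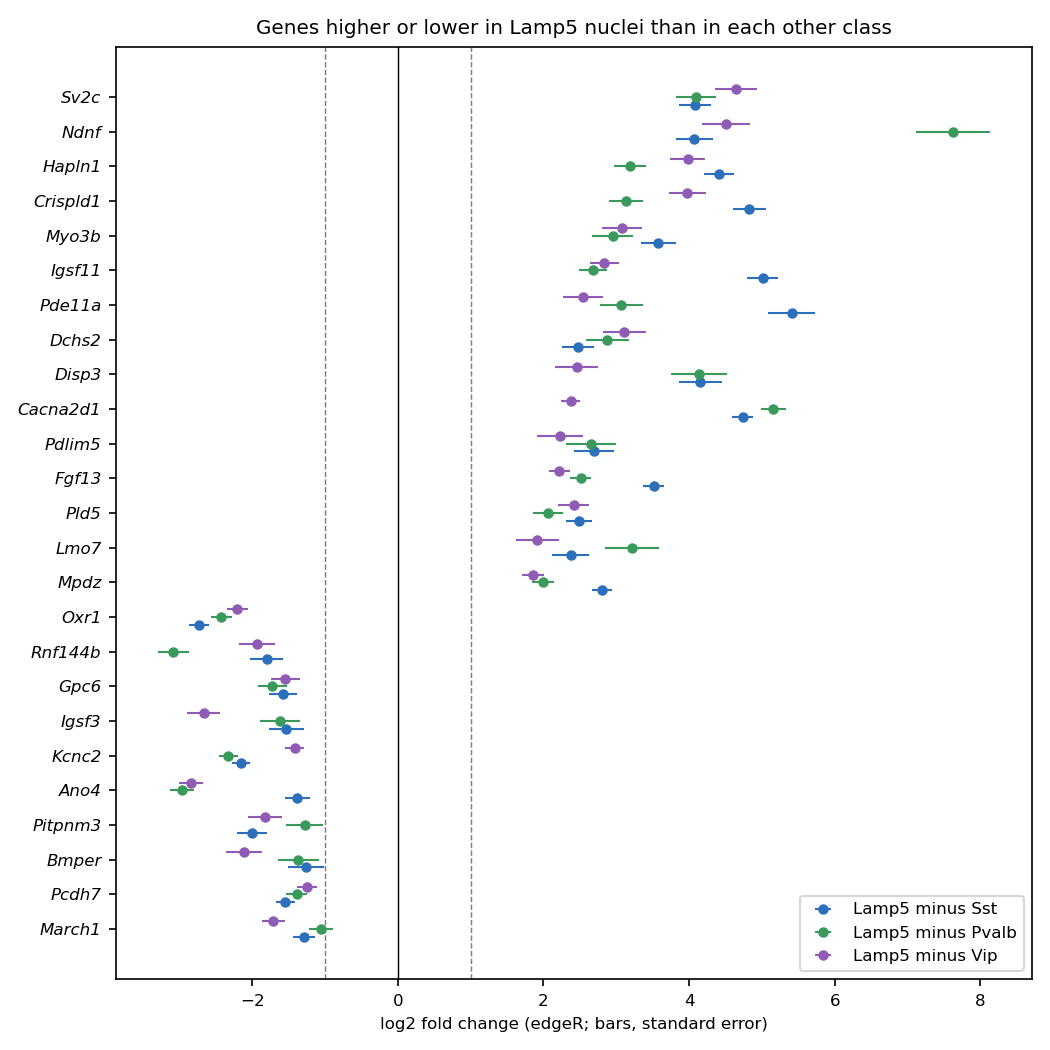
Log2 fold change (x axis) of the 25 named genes (y axis) in Lamp5 nuclei against Sst, Pvalb and Vip nuclei, from edgeR; bars are standard errors, dashed lines mark a 2-fold change. Ndnf is farthest from Pvalb nuclei at 7.62, and the lower gene with the largest smallest fold, Oxr1, lies at -2.73, -2.43 and -2.20.

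The gene lists place these results by function. They were chosen with earlier results of these data known, so their counts are read only beside the shares of all genes. For calls in all 3 contrasts these shares were 1.25% higher and 0.568% lower. Of 20 neurogliaform and Lamp5 subtype genes, 14 were tested and 6 were higher than in all 3 classes (Ndnf, Id2, Sv2c, Hapln1, Ntn1 and Fgf13), with list medians of 1.83, 3.21 and 2.16 log2 against Sst, Pvalb and Vip nuclei. Id2, an inhibitor of basic helix-loop-helix factors, was low in every class but reached 23.6 to 64.3 CPM in Lamp5 nuclei, with log2 fold changes of 4.21 ± 0.46, 3.23 ± 0.51 and 2.11 ± 0.43. In the test against a 2-fold change itself (glmTreat), the list genes Ntn1, Nfib, Satb1, Elfn1, Gabra5, Gabbr2 and Adra1a, each called in all 3 contrasts by the main rule, did not pass. Cplx3, Lsp1, Pax6, Krt73, Dock5 and Egln3 were too low to test. Cxcl14, a chemokine, was 2.42 ± 0.50 and 3.30 ± 0.73 above Sst and Pvalb nuclei on the log2 scale and -3.01 ± 0.28 against Vip nuclei.

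Genes of developmental origin differed from each of the other classes. Among all genes, 4.83%, 7.3% and 4% were called higher than in Sst, Pvalb and Vip nuclei. Lower calls made up 4.12%, 5.64% and 4.26%, and the counts against single classes are read beside these shares. Of the 7 tested genes of the caudal ganglionic eminence list, 4 were called higher than in Sst, 5 than in Pvalb and 1 than in Vip nuclei, while 5 were called lower than in Vip and 1 lower than in Sst nuclei, with list medians of 3.09, 2.89 and -1.42 log2. Nfib, a nuclear factor I transcription factor, was higher than in all 3 classes, at 893 to 1239 CPM with log2 fold changes of 3.63 ± 0.12, 2.89 ± 0.13 and 1.08 ± 0.11. Adarb2 exceeded Sst nuclei by 5.03 ± 0.33 and Pvalb nuclei by 4.15 ± 0.33 but was -1.42 ± 0.27 against Vip nuclei (edgeR adjusted p 5.29e-05), and Prox1 likewise was 3.09 ± 0.28, 1.58 ± 0.28 and -1.54 ± 0.18. Of 5 tested genes of the medial ganglionic eminence list, 5 were called lower than in Sst, 3 than in Pvalb and 2 than in Vip nuclei (list medians -4.82, -1.85 and -0.76 log2). Satb1 and Elfn1 were lower than in all 3 classes. The Satb1 call was lost when thinned (-1.16) and in the test against a 2-fold change, and the Elfn1 call in 6 of the other settings, among them without control 2 and without TBI 1. Sox6 was lower than in Sst and Pvalb nuclei, with log2 fold changes of -4.86 ± 0.26 and -4.03 ± 0.28, and did not pass against Vip nuclei (-0.76 ± 0.39). Lhx6 was the exception: it was 3.28 ± 0.50 higher than in Vip nuclei and did not pass against Pvalb nuclei (-0.16 ± 0.30).

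In the reelin pathway, 0 of 6 tested genes were higher or lower in all 3 contrasts. Reln itself was 5.51 ± 0.23 above Pvalb and 3.37 ± 0.18 above Vip nuclei on the log2 scale, but only 0.59 ± 0.14 above Sst nuclei, which is under the 2-fold limit (edgeR adjusted p 0.000956). Dab1, the adaptor that the reelin receptors use, had 1576 to 2323 CPM in Lamp5 nuclei and was 1.93 ± 0.12 and 1.54 ± 0.13 above Sst and Pvalb nuclei, against 0.34 ± 0.12 for Vip nuclei. The receptors Vldlr and Lrp8 had medians of 75.7 and 105 CPM in Lamp5 nuclei. Of these receptors only Vldlr reached a called 2-fold difference, against Pvalb nuclei (1.52 ± 0.27).

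Genes of GABA handling were mostly shared among the interneurons. None of the 9 genes for GABA synthesis, release and uptake was called in all 3 contrasts (0 of 9), and the list medians were -0.19, 0.18 and -0.11 log2. Of 12 GABA-A receptor subunits, Gabra5, a subunit of extrasynaptic receptors, was higher in all 3 (2.12 ± 0.27, 2.08 ± 0.34 and 1.67 ± 0.31). Gabrd, the delta subunit of neurogliaform cells, was 2.43 ± 0.26 and 3.21 ± 0.37 above Sst and Vip nuclei and did not pass against Pvalb nuclei (-0.29 ± 0.22). Of 7 tested GABA-B genes, Gabbr2, the receptor subunit that couples to G proteins, was higher in all 3, at 655 to 946 CPM, with log2 fold changes of 1.10 ± 0.09, 1.15 ± 0.10 and 1.48 ± 0.11.

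Neuropeptide and modulator receptor genes were called mostly against single classes. Of 8 tested neuropeptide genes 0 were called in all 3, beside 1.25% higher and 0.568% lower among all genes. Against Sst, Pvalb and Vip nuclei, 3, 5 and 1 of the 8 were called higher and 2, 0 and 4 lower. Of all genes, 4.83%, 7.3% and 4% were higher and 4.12%, 5.64% and 4.26% lower in these contrasts. Npy was 4.81 ± 0.35 above Pvalb and 2.70 ± 0.26 above Vip nuclei but -0.04 ± 0.18 against Sst nuclei, and it ranged widely between libraries: 69.4 CPM in BCAS 2 and 873 CPM in BCAS 1, so libraries of 1 group lay at both ends. Cck was 1.68 ± 0.30 above Sst nuclei on the log2 scale and -2.14 ± 0.21 against Vip nuclei. Of 16 tested modulator receptors, Adra1a, an alpha-1 adrenergic receptor, was higher in all 3, at 212 to 533 CPM with log2 fold changes of 1.86 ± 0.15, 1.61 ± 0.17 and 1.34 ± 0.17. Against Sst, Pvalb and Vip nuclei, 4, 5 and 3 of the 16 were called higher and 3, 2 and 7 lower. Cnr1, the cannabinoid receptor, was 3.25 ± 0.22 above Pvalb nuclei and -2.26 ± 0.13 against Vip nuclei. Of 15 potassium channel genes only Kcnc2 was called in all 3, and it was lower. Nitric oxide genes (5 tested) and glutamate receptors (16 tested) had 0 calls in all 3, as had the 4 tested genes each of the immediate early, neuron injury and hypoxia lists and the 1 tested interferon gene.

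Markers of other cell types moved with some of these results. Vcan, a matrix proteoglycan listed here as a marker of oligodendrocyte precursors, was higher in Lamp5 nuclei than in all 3 classes (2.69 ± 0.26, 3.60 ± 0.38 and 2.71 ± 0.32 log2). All 4 markers of that list had UMIs in Lamp5 nuclei and summed to 28.6 to 189.7 CPM. The sums were 0 to 43.7 CPM in Sst, 0 to 34.9 in Pvalb and 9.33 to 78.0 in Vip nuclei, so the Lamp5 range overlapped each. Meis2 was 2.50 ± 0.35 above Sst and 2.74 ± 0.44 above Vip nuclei on the log2 scale, and at -0.04 ± 0.31 against Pvalb nuclei. Without the nuclei that held at least 2 UMIs of Meis2, 95 genes were higher and 75 lower in all 3. Astrocyte markers, 4 of the 4 outside the gate detected, summed to 109 to 307 CPM in Lamp5, 66.6 to 138 in Sst, 44.7 to 329 in Pvalb and 167 to 308 CPM in Vip nuclei, so the Lamp5 range overlapped that of each other class. Their part in the class differences was not tested.

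The share of Lamp5 nuclei did not separate the surgeries. Among GABA nuclei it was 4.87% and 5.08% in control 1 and 2, 5.85% and 3.69% in BCAS, 5.01% and 4.81% in TBI, and 3.68% and 4.71% in BCAS+TBI. The libraries with and without each surgery overlapped. With TBI the mean was 4.55% ± 0.596 (SD, n = 4) against 4.87% ± 0.894 without (difference -0.317 percentage points, exact two-sided permutation p = 0.457), and with BCAS it was 4.48% ± 1.03 against 4.94% ± 0.124 (-0.460, exact permutation p = 0.314; adjusted over both, 0.457). The smallest p that 4 against 4 libraries allow is 0.0286. Within library sets the BCAS difference was 0.340 in set 1 and -1.26 in set 2, and without BCAS 1 it was -0.915 (exact permutation p = 0.0286, adjusted 0.0571). The share needs at least 2 UMIs of Lamp5 in a nucleus, and the GABA gate needs UMIs too, so it can depend on depth. It was 4.71% to 5.85% in the shallower set 1 and 3.68% to 5.08% in set 2. With nuclei thinned to 2000 UMIs before gating, the means were 1.61% with TBI and 1.53% without.

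**Figure D4:**
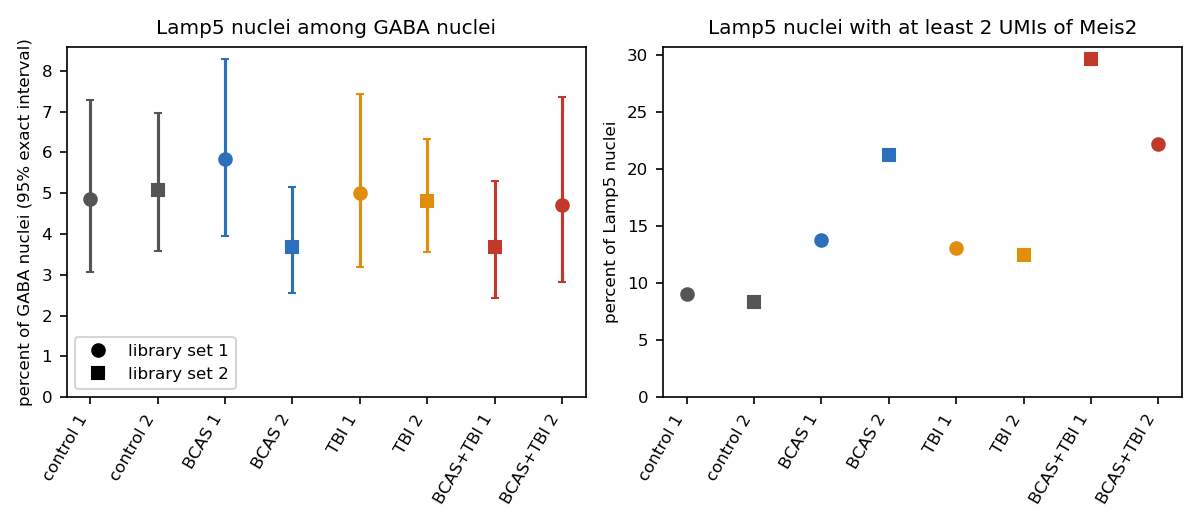
Left, Lamp5 nuclei as a percentage of GABA nuclei in each library with exact 95% intervals; right, the percentage of Lamp5 nuclei with at least 2 UMIs of Meis2. Circles are set 1 and squares set 2; the shares at left overlap between surgeries, and those at right are 8.33% to 13.0% without BCAS and 13.8% to 29.6% with it.

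The libraries with and without BCAS differed in the share of Lamp5 nuclei that held Meis2 and in markers of 2 other cell types. At least 2 UMIs of Meis2 were held by 2 of 22 and 3 of 36 nuclei in control, 4 of 29 and 7 of 33 in BCAS, 3 of 23 and 6 of 48 in TBI, and 8 of 27 and 4 of 18 in BCAS+TBI. The 4 libraries with BCAS lay between 13.8% and 29.6%, and the 4 without between 8.33% and 13.0%, with no overlap. The 4 oligodendrocyte markers outside the gate, all with UMIs, summed to 76.5 to 100.1 CPM without BCAS and 105.8 to 143 CPM with it. The 3 endothelial markers summed to 35.7 to 379 and 0 to 23.6 CPM, also with no overlap. With 94525 to 384878 UMIs per library, most of these marker sums rest on few UMIs. Flt1, for example, had 0 UMIs in TBI 1 and 1 in BCAS+TBI 1. The endothelial list includes Flt1, which was itself called for BCAS, so its sum and that call share UMIs. The other marker lists overlapped between libraries with and without BCAS, and every list overlapped between those with and without TBI. A full separation of 4 against 4 libraries in 1 measure has an exact two-sided permutation p of 0.0286, and many measures were looked at. These separations were seen after the data were examined and are given as descriptions, and their part in the BCAS results was not tested. In sums over nuclei, fewer nuclei of a kind and less RNA per nucleus cannot be told apart, so each surgery result below is given beside these values.

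Few genes passed the threshold for a surgery. In a model of the 4 groups with the library set (edgeR quasi-likelihood test on Lamp5 sums, 4520 genes), 1 gene (0.0221%) was called for TBI averaged over BCAS, 4 (0.0885%) for BCAS averaged over TBI, 0 (0%) for their interaction and 5 (0.111%) for BCAS+TBI against control. At an unadjusted p under 0.05 the counts were 198, 229, 153 and 235. DESeq2 called 1, 2, 0 and 0, and at an unadjusted p 66, 77, 47 and 77. Without the library set as a term edgeR called 0 in every contrast, at 95, 119, 73 and 129 unadjusted, and without BCAS+TBI 1 it also called 0 in every contrast. Leaving out BCAS 1 gave 29, 41, 18 and 24, and leaving out control 1 gave 4, 45, 9 and 28, so these counts rest on single libraries.

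Il1rapl2, a synaptic adhesion protein related to the interleukin-1 receptor, was the gene called for TBI. It had 161 and 307 CPM in control, 237 and 190 in BCAS, 42.9 and 148 in TBI, and 51.9 and 21.2 in BCAS+TBI. The 4 libraries with TBI lay below the 4 without. Its log2 fold change was -1.83 ± 0.30 (edgeR adjusted p 0.0329), and for BCAS+TBI against control it was -2.61 ± 0.46 (adjusted p 0.0216). Only 36 of the 236 nuclei held a UMI of it, and 1 nucleus of control 2 held 51 of that library's 118 UMIs. Without the nucleus of each library that held most of its UMIs the TBI value was -1.55 and no longer passed, and it did not pass without the library set (-1.79) or without BCAS+TBI 1 (-2.09).

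Ntng1 and Nell1 were higher with BCAS. Ntng1, a netrin-related adhesion protein of axons, had 87.9 and 28.6 CPM in control, 349 and 115 in BCAS, 28.6 and 87.5 in TBI, and 769 and 402 in BCAS+TBI. The libraries with BCAS lay above those without, and the log2 fold change was 2.64 ± 0.38 (edgeR adjusted p 0.00549). Nell1, a secreted protein with EGF-like repeats, had 87.9 and 77.9 CPM in control, 331 and 229 in BCAS, 57.2 and 145 in TBI, and 467 and 222 in BCAS+TBI, again without overlap (1.75 ± 0.26, adjusted p 0.00634). For BCAS+TBI against control they were 3.68 ± 0.53 and 2.15 ± 0.39 (edgeR adjusted p 0.00355 and 0.0216). The BCAS call of Ntng1 passed in 15 of 20 other settings and that of Nell1 in 12 of 20. Among those lost, Ntng1 was at 2.01 without BCAS+TBI 1, 2.67 without the library set and 2.66 with DESeq2, and Nell1 at 1.38 without BCAS+TBI 1 and 1.73 without the library set. The predicted gene 6530403H02Rik was also called for BCAS and is left out by the rule for named genes.

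Single nuclei held much of these sums. In BCAS+TBI 1, the 1 Lamp5 nucleus with the most UMIs (16928) held 109 of 163 UMIs of Ntng1, 82 of 99 of Nell1 and 57 of 77 of Chrm2. In BCAS+TBI 2, 1 nucleus held 30 of 38, 18 of 21 and 11 of 14. Both had exactly 2 UMIs of Lamp5, 6 and 7 UMIs of Meis2, 88 and 13 of Adarb2, and 2 and 0 of Reln; 133 of the 236 nuclei had exactly 2 UMIs of Lamp5. Without them the 2 libraries were at 277 and 91.0 CPM of Ntng1 and at 87.2 and 34.1 CPM of Nell1, and Nell1 then overlapped the libraries without BCAS. With each gene's sum taken without the nucleus that held most of its UMIs in each library, Ntng1 kept its BCAS call (2.25, edgeR adjusted p 0.0196) and Nell1 fell short of it (0.79). Ntng1 also passed for BCAS without the nuclei that held Meis2 (2.30 ± 0.41, edgeR adjusted p 0.00628), although BCAS+TBI 2 then had 50.3 CPM and lay below control 1 at 86.8, while Nell1 did not pass (0.80).

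Flt1, a receptor of vascular endothelial growth factor that marks endothelial cells, was lower with BCAS, and 2 nuclei held most of its UMIs. It had 117 and 244 CPM in control, 0 and 3.02 in BCAS, 0 and 24.6 in TBI, and 4.72 and 0 in BCAS+TBI, a log2 fold change of -4.27 ± 0.70 (edgeR adjusted p 0.0111). The 4 libraries with BCAS held 2 UMIs of it in all, so the value depends on the prior count, and of the libraries left out in turn the call was lost without control 2, TBI 2 or BCAS+TBI 1 (-5.65, -2.23 and -5.15). In control 1 a single nucleus held 16 of 16 UMIs, and in control 2 a single nucleus held 93 of 94. Each had the most UMIs among the Lamp5 nuclei of its library (26400 and 28448). The nucleus of control 2 also held 94 UMIs of Rgs5, a pericyte gene, 36 of Cldn5 and 16 of Pecam1, and 0 of Reln and Adarb2. The endothelial markers Cldn5, Flt1 and Pecam1, 3 of 3 detected, summed to 35.7 to 379 CPM without BCAS and 0 to 23.6 CPM with it. The value for BCAS+TBI against control was -5.82 ± 0.76 (adjusted p 0.00172). Outside these 2 nuclei the highest library was TBI 2, with 9 UMIs in 5 nuclei.

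Chrm2, a muscarinic acetylcholine receptor, was called for BCAS+TBI against control. It had 14.6 and 59.8 CPM in control and 363 and 148 in BCAS+TBI, and between 12.1 and 49.2 CPM in the BCAS and TBI libraries, with a log2 fold change of 2.65 ± 0.46 (edgeR adjusted p 0.0216). Without the 2 nuclei named above, BCAS+TBI 1 and 2 were at 103 and 34.1 CPM, and BCAS+TBI 2 then lay below control 2. Its interaction of both surgeries was 3.94 ± 0.80 and did not pass (adjusted p 0.404), and the other genes with the smallest p-values for the interaction were Pde1a, Mei4, Greb1l and Tgfbr3, none of which passed (adjusted p 0.404 to 0.999).

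**Figure D5:**
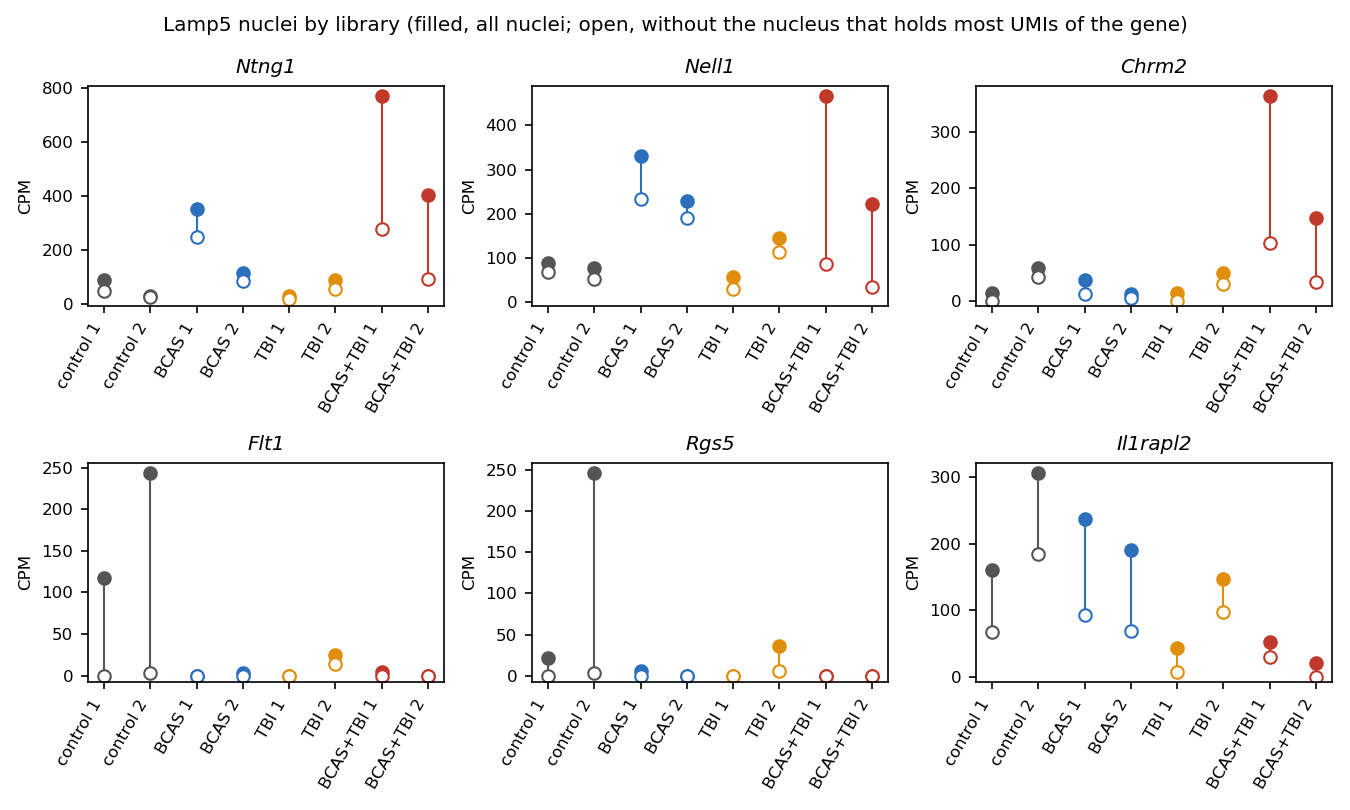
CPM (linear axis) of 6 genes in the Lamp5 nuclei of each library; filled points hold all nuclei and open points leave out the nucleus with most UMIs of the gene. The 2 BCAS+TBI libraries drop most for Ntng1, Nell1 and Chrm2, and the control libraries drop to 2.81 CPM or less for Flt1 and Rgs5.

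The functional lists showed no call for TBI or for BCAS. For TBI, 0 of 10 tested neurogliaform genes passed and 5 were positive, with a median of -0.05 log2, against 48.9% positive and a median of -0.0056 over all genes. Reln was at 0.01 ± 0.17 for TBI and -0.21 ± 0.16 for BCAS on the log2 scale, and Npy at 0.06 ± 0.37 and -0.10 ± 0.39. Of 15 potassium channel genes 11 were negative for TBI with a median of -0.17, 0 of them past the threshold; Kcnip4, a potassium channel-interacting protein, was at -0.65 ± 0.18 (edgeR adjusted p 0.543). Of 11 tested GABA-A subunits 6 were positive for TBI and 7 for BCAS, and of 4 tested genes of the caudal ganglionic eminence list 3 were positive for TBI and 0 for BCAS. Stress-related lists were thinly covered: 1 of 14 immediate early genes, 2 of 12 neuron injury genes and 1 of 12 hypoxia genes were tested, and none of 10 interferon genes (0) reached the filter. The tested hypoxia gene was Slc2a1, at -2.43 log2 for TBI, -1.70 for BCAS and -4.12 for BCAS+TBI against control, none past the threshold. Changes in the genes of these lists that were not tested could not be seen at this depth.

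Without the nuclei that held Meis2, an alternative chosen after seeing the data, TBI gave 18 of 3503 genes (0.514%), 3 higher and 15 lower, from 199 nuclei. Il1rapl2 was at -2.40 ± 0.32 (edgeR adjusted p 1.69e-05), with 212 and 326 CPM in control, 279 and 248 in BCAS, 8.47 and 87.1 in TBI, and 68.6 and 0 in BCAS+TBI. Cntnap5b, a contactin-associated protein of the neurexin family, had 73.5 to 241 CPM without TBI and 16.9 to 34.3 CPM with it (-2.09 ± 0.36, adjusted p 0.00147), where with all nuclei it was -0.86 (adjusted p 1.00). Kcnip4 had 5703 to 5897 CPM in the 4 libraries without TBI and 2095 to 5671 CPM with it, TBI 2 being the highest of these (-0.89 ± 0.15, adjusted p 0.00147). Gpc6 was at 110 to 397 CPM without TBI and 50.3 to 84.0 CPM with it (-1.50 ± 0.30, adjusted p 0.00678). Npas3, a neuronal transcription factor, rose (1.31 ± 0.23, adjusted p 0.00152), with 155 to 542 CPM without TBI and 235 to 960 CPM with it, BCAS+TBI 2 the low library. For BCAS this alternative gave 1 gene, Ntng1. The nuclei with Meis2 were not spread evenly over the groups, and the part of that in these values was not tested.

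Surgery effects in Lamp5 nuclei were set against those in the Sst, Pvalb and Vip nuclei of the same libraries, summed as 1 class, in 1 edgeR model of 8876 genes. For TBI 0 genes (0%) differed in their effect, with 381 at an unadjusted p under 0.05 and 0 called by DESeq2. Npas3 (1.55 ± 0.29, adjusted p 0.104) and Tenm3, a teneurin of synaptic partner matching (-1.03 ± 0.22, adjusted p 0.264), came nearest. For BCAS 4 genes (0.0451%) differed: Ntng1 (2.16 ± 0.36, adjusted p 0.00735), Nell1 (1.56 ± 0.26, adjusted p 0.00735), Rgs5 (-6.93 ± 1.25, adjusted p 0.0175) and Flt1 (-5.13 ± 0.99, adjusted p 0.0365). Single nuclei held much of the sums of these 4 genes. Of the 95 UMIs of Rgs5 in control 2, 94 were in the nucleus that also held Flt1, and the libraries with BCAS held 1 UMI in all. Leaving out 1 library moved the BCAS count between 0 (without TBI 2) and 9 (without control 1). Without the nucleus that held most UMIs of each gene, TBI gave 2 genes, Npas3 (1.38) and Tenm3 (-1.07), both at an edgeR adjusted p of 0.0359, and BCAS gave 1, Ntng1 (2.14, adjusted p 0.00845). Without the nuclei that held Meis2, 10 of 8472 genes differed for TBI (edgeR). Cntnap5b (-2.35 ± 0.39), Il1rapl2 (-2.12 ± 0.36), Gpc6 (-1.56 ± 0.29), Zfpm2 (-2.13 ± 0.40), Ebf1 (-5.04 ± 0.95), Tenm3 (-1.16 ± 0.23) and Oxr1 (-1.23 ± 0.26) were lower in this difference, as were 2 predicted genes, and Npas3 was higher (1.35 ± 0.26). Ebf1 was at 0 CPM in the Lamp5 nuclei of 4 of the 8 libraries, so its value depends on the prior count. For BCAS that alternative called 1 gene, Dach1 (-3.66 ± 0.63, edgeR adjusted p 0.00351), and Ntng1 did not pass (2.06, adjusted p 0.0791).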

How the data were processed

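The authors deposited raw UMI counts per gene and barcode, which name Cell Ranger 7.0.0 in the file headers; mm10 (GRCm38) and Seurat stand in the submitters' processing notes, and the annotation release is not given in the sources used here. A barcode entered the gate with 1000 UMIs or more, 300 genes or more and no more than 5% of its UMIs from mitochondrial genes. Comparison nuclei needed at least 4 UMIs of Sst, 2 of Pvalb or 2 of Vip and at most 1 of each other class marker (at most 3 of Sst). Raw counts were summed per library and class, the 11 gate genes removed, and edgeR 4.0.16 (R 4.3.3; TMM, filterByExpr, two-sided quasi-likelihood tests, Benjamini-Hochberg) fitted all libraries, after a test on simulated counts. DESeq2 1.42.0 was an alternative. P-values measure the spread between libraries. Classes of a library needed 10 nuclei.

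The library sets split the libraries at the largest gap in log total UMIs. With 2 libraries per group, deviations from the group mean mirror each other, so the numbering sets only the sign of a correlation. Between same-numbered libraries it ran from 0.224 to 0.301 among control, BCAS and TBI. For pairs with BCAS+TBI it ran from -0.401 to -0.298. The sets swap the numbers of BCAS+TBI alone, and within sets the range was 0.224 to 0.401. These values therefore cannot show whether replicate numbers pair the libraries.

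The members, lists and tests were chosen with earlier results of these data known. Named genes had a mean of at least 50 CPM in Lamp5 nuclei (lower genes, in each of the other 3 classes) and lay beyond the 3 other classes in every library: the 15 higher and 10 lower with the largest smallest fold; for surgery, up to 8 past the threshold by p, otherwise the 5 smallest p, without predicted genes; list genes are named for their list. Doublets were kept: the automatic threshold of Scrublet (scanpy 1.11.5) called 0.0485% or fewer of the barcodes doublets in 7 libraries but 4.47% in the other, so removing the top 6% of scores served as an alternative.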

Additional observations from a re-analysis of the deposited data

Results flagged for a closer look

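Among 28 measures of the Lamp5 nuclei tested over the 8 libraries (the 25 named class genes, the share among GABA nuclei, median UMIs and the mitochondrial share), 3 had 1 library far from the others, where chance alone marks about 1 in 20. Hapln1 was at 95.2 CPM in BCAS+TBI 2, with the next library at 193 CPM and the highest at 255. Pde11a was at 764 CPM in control 2, with the next at 493 and the lowest at 283. Oxr1 was at 426 CPM in control 2, with the next at 217 and the lowest at 118. BCAS+TBI 2 had the fewest Lamp5 nuclei, 18, and control 2 the Lamp5 nucleus with the most UMIs, 28448.

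The BCAS effect differed between Lamp5 nuclei and the other interneuron nuclei of the same libraries, by the edgeR test of that difference, for Ntng1 (2.16 log2), Nell1 (1.56), Rgs5 (-6.93) and Flt1 (-5.13). In BCAS+TBI 1 and 2, 1 nucleus held most UMIs of Ntng1 and of Nell1, and in control 2, 1 nucleus held most UMIs of Rgs5 and of Flt1.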

How the results depend on the processing

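All 15 named higher class genes kept their call in every other setting that tested them; counts depended more on the settings. For genes higher and lower than in all 3 classes (97 and 44), no filter on low counts gave 149 higher, a minimum count of 30 gave 48 and 21, thinning to 2000 UMIs 42 and 22, a test against a 2-fold change (glmTreat) 39 and 9, and the lower genes were 75 without Meis2 nuclei and 72 without the nucleus that held most UMIs of each gene; leaving out 1 library gave 85 to 104 and 31 to 47.

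For the surgery counts, in the order TBI (1), BCAS (4), interaction (0) and BCAS+TBI against control (5), no filter gave 14, 15, 5 and 28, a minimum count of 30 gave 0 for TBI, BCAS and BCAS+TBI against control, thinning 2 for TBI, 2 for BCAS and 0 for BCAS+TBI against control, and RLE normalization 2 for TBI. DESeq2 gave 2 for BCAS and 0 for BCAS+TBI against control, only the groups compared 0 for the latter, and no library set term 0 in all. Without nuclei with striatal or excitatory markers the counts were 0 for TBI and 1 each for BCAS and BCAS+TBI against control, without the top Scrublet scores 0 for TBI and 1 for the interaction, and without high-UMI nuclei 7 for BCAS and 4 for the interaction. Without Meis2 nuclei they were 18, 1, 2 and 9, where Nell1 reversed for BCAS+TBI against control (-0.23). Without the nucleus that held most UMIs of each gene they were 0, 1, 0 and 0. Leaving out 1 library gave 0 to 29, 0 to 45, 0 to 18 and 0 to 28. With the replicate number as a block in place of the set, 0 genes were called for TBI, BCAS and BCAS+TBI against control, and the shares gave exact permutation p of 0.556 and 0.389.

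For the difference between Lamp5 and other interneuron nuclei (0 for TBI, 4 for BCAS), no filter gave 10 and 18, a minimum count of 30 gave 0 for BCAS, thinning 1 and 1, an own marker 1 UMI higher 1 and 0 with Chrm2 reversed for TBI (-0.19), fitted without the BCAS+TBI libraries, whose Lamp5 nuclei then numbered 8 and 5, without Meis2 nuclei 10 and 1 (Dach1), without the nucleus that held most UMIs 2 and 1, without striatal or excitatory markers 1 for BCAS, and DESeq2, without the top Scrublet scores and without high-UMI nuclei 2 each for BCAS; leaving out 1 library gave 0 to 3 and 0 to 9. The share difference for TBI reversed when thinned (0.0753) and without BCAS 1 (0.00876), from -0.711 to 0.00876 over libraries left out, and for BCAS it ran from -0.915 to -0.193. With 1 more UMI of Lamp5 the share differences were -0.636 for TBI and -0.842 for BCAS (exact permutation p 0.200 and 0.0857). The causes were not tested.

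The Meis2, single-nucleus and 4-class alternatives were chosen after seeing the data. The surgery model with 1 more UMI of Lamp5 was not run, since both BCAS+TBI libraries then held under 10 nuclei, and the Lhx6 split held too few. With 18 to 48 nuclei per library, depth limits what could be called for low genes.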
